A study of Homo sapiens with 8 samples.

Results

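The genes described here are 8 kallikrein-related peptidases, KLK5, KLK6, KLK7, KLK8, KLK10, KLK11, KLK12 and KLK13, and 2 Kazal-type inhibitors, SPINK5 and SPINK7. They were taken by gene name from a table of 25369 genes, and all 10 were found there. RNA was sequenced from EPC2-hTERT cells, a telomerase-immortalized line of human esophageal keratinocytes, labelled wild type. All cultures had 5 days in calcium at 1.8 mM and stratified for 4 days at an air-liquid interface. One group of 4 libraries received DMSO vehicle and the other group of 4 received 1 mM dimethyloxalylglycine (DMOG) in place of vehicle alone, in both cases for 18 h before harvest. DMOG blocks prolyl hydroxylases, through which the alpha subunits of hypoxia-inducible factor (HIF) are sent for destruction. The comparison asked how the expression of the cultured epithelium differs between DMOG and vehicle. All cultures came from 1 cell line, without stromal or immune cells, and the labels do not say whether the libraries of a group were separate cultures. The p-values therefore reflect only how far these libraries scatter, which may be technical.

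Kallikreins are secreted serine proteases made as inactive proenzymes in the upper layers of squamous epithelia. They activate one another in a cascade and cut the desmosomal proteins that hold the outermost cells together, so that those cells can be shed. The Kazal-type inhibitors hold this activity back: SPINK5 encodes LEKTI, whose loss causes Netherton syndrome, and loss of SPINK7 has been linked to barrier failure in eosinophilic esophagitis.

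All 8 kallikreins lie on the minus strand of chromosome 19 within a run of 15 kallikrein genes, chr19:51322402-51587502 in hg19, the build of the deposited positions. Those from KLK5 (chr19:51446559-51456344) to KLK13 (chr19:51559463-51568367) span 121809 bp and enclose 1 further kallikrein, KLK9. SPINK5 (chr5:147443535-147516925) and SPINK7 (chr5:147691990-147695481) lie on the plus strand of chromosome 5, in a span of 251947 bp that holds 5 SPINK genes. The positions in the table give gene bounds without exons.

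Because the enzymes that DMOG blocks control HIF, the 250 bases before the transcription starts were searched for the core of the HIF response element. RefSeq sequences on GRCh38.p14 were at hand for 9 of the 10 genes, in 14 windows, since some genes have several starts. The entry for KLK8 is missing. The core was searched as ACGTG and, separately, as GCGTG, each on both strands. The sequences below are the windows that hold either core for KLK10, KLK11, KLK12 and KLK13 (the first of 2 starts where there are 2), those of SPINK5 and SPINK7, the most abundant members, and, for comparison, that of CA9, a carbonic anhydrase known as a HIF target. Each reads 5′ to 3′ on the strand of its gene and ends just before the start, with each core, on either strand, in capitals.
KLK10 (chr19:51019862-51020111, minus strand): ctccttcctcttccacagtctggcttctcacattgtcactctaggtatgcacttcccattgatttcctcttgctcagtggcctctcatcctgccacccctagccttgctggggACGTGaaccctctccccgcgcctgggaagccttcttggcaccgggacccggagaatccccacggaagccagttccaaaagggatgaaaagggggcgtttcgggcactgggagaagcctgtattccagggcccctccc
KLK11 (chr19:51027647-51027896, minus strand): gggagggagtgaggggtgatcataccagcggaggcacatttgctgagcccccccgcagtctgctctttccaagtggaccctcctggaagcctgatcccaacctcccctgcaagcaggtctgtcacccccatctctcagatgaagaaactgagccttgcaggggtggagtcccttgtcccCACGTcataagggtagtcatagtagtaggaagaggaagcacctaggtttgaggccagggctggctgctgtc
KLK12 (chr19:51035003-51035252, minus strand): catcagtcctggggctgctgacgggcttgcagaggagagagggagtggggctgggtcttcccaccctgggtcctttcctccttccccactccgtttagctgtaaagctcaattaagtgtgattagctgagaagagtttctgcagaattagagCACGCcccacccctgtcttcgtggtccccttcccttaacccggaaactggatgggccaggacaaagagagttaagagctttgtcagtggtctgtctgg
KLK13 (chr19:51065093-51065342, minus strand): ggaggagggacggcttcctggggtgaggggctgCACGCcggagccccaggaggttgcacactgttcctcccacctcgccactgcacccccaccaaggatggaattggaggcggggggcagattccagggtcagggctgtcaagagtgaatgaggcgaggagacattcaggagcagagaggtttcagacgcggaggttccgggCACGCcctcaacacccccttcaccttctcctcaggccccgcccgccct
SPINK5 (chr5:148063730-148063979, plus strand): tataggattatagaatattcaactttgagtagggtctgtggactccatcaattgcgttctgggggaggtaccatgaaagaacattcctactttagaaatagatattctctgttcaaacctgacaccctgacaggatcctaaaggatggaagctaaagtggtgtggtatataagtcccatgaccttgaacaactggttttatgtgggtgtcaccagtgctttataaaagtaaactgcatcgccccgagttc
SPINK7 (chr5:148312173-148312422, plus strand): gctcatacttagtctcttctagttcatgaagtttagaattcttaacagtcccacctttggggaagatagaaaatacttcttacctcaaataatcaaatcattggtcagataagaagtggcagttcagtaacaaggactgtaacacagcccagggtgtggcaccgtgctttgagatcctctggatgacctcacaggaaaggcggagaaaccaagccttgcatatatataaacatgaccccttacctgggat
CA9 (chr9:35673678-35673927, plus strand): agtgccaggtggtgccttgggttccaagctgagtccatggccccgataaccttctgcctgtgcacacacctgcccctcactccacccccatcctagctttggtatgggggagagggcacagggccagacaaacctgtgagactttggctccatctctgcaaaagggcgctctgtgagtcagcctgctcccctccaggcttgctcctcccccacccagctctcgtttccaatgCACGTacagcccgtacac
The KLK10 core begins 137 bases before the start and the KLK11 core 71 bases before it, while that of CA9 begins 18 bases before. ACGTG or its complement occurred in 2 of the 14 windows (14.3%), and in 18.5% of the 35116 windows of the same length for the 27305 genes of that RefSeq promoter set. GCGTG occurred in 3 of the 14 (21.4%), from KLK12 and KLK13, against 32.2% of all windows. Windows of the same gene can overlap and share a site, as those of KLK13 do. Counted by gene, ACGTG was in 2 of 9 members and 5935 of 27305 genes, and GCGTG in 2 of 9 members and 9889 genes. Neither core was found in the windows of KLK5, KLK6, KLK7, SPINK5 and SPINK7. TGANTCA, the binding motif of AP-1, where N is any base, was in 0 of the 14 windows and in 6.57% of all. TATAAA was in those of SPINK5, where it begins 30 bases before the start, and SPINK7, 26 bases before, and in 10.7% of all windows; the SPINK5 match overlaps a second match on the other strand. Such a match describes the letters of the window and no more.

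The deposited values are RPKM, reads scaled to gene length and to the library's total, so levels can be compared between genes. SPINK5 had the highest mean of the 10 in both groups and ranked between 49th and 95th of all 25369 genes over the libraries. SPINK7 followed, ranked between 61st and 136th, and in DMOG replicate 2 it stood just above SPINK5 (893 against 885 RPKM). In vehicle cultures the order of mean RPKM was SPINK5, SPINK7, KLK10, KLK12, KLK11, KLK7, KLK5, KLK8, KLK13 and KLK6. Only 3 steps in that order separated neighbours whose ranges did not overlap within either group, namely SPINK7 above KLK10, KLK5 above KLK8, and KLK13 above KLK6. Among KLK10, KLK12, KLK11, KLK7 and KLK5 the ranges of neighbours in the order overlapped in both groups.

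**Figure D1:**
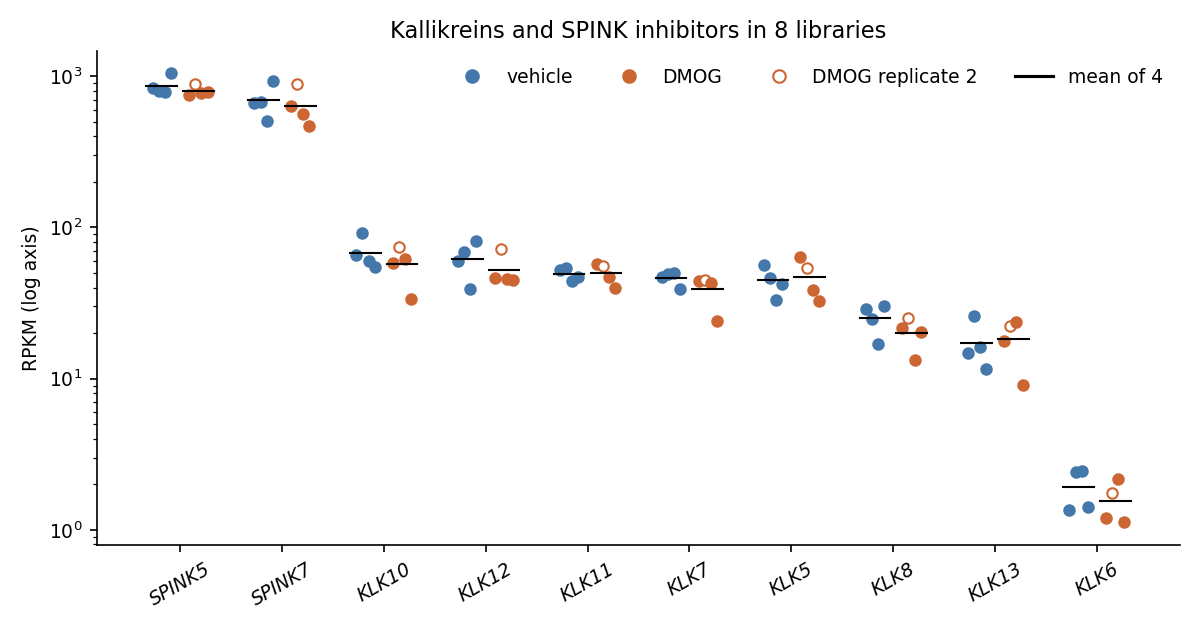
RPKM of each gene (log axis) in the 4 vehicle and 4 DMOG libraries, left to right in each group by replicate 1 to 4, with the mean of 4 as a bar. SPINK5 and SPINK7 lie between 466 and 1046 RPKM, all kallikreins lie below 100, and the 2 groups overlap for every gene.

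Across the cluster the members alone carried nearly all kallikrein RNA. They held 97.6% to 98.4% of the summed kallikrein RPKM in vehicle libraries and 96.5% to 97.9% in DMOG libraries. KLK9 (2.58 to 5.68 RPKM over 8 libraries) and KLK14 (1.05 to 4.26) followed, and KLK1 lay near 1 RPKM. KLK2 and KLK15 were listed at 0 in every library, and KLK3 and KLK4 were at or near 0.

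**Figure D2:**
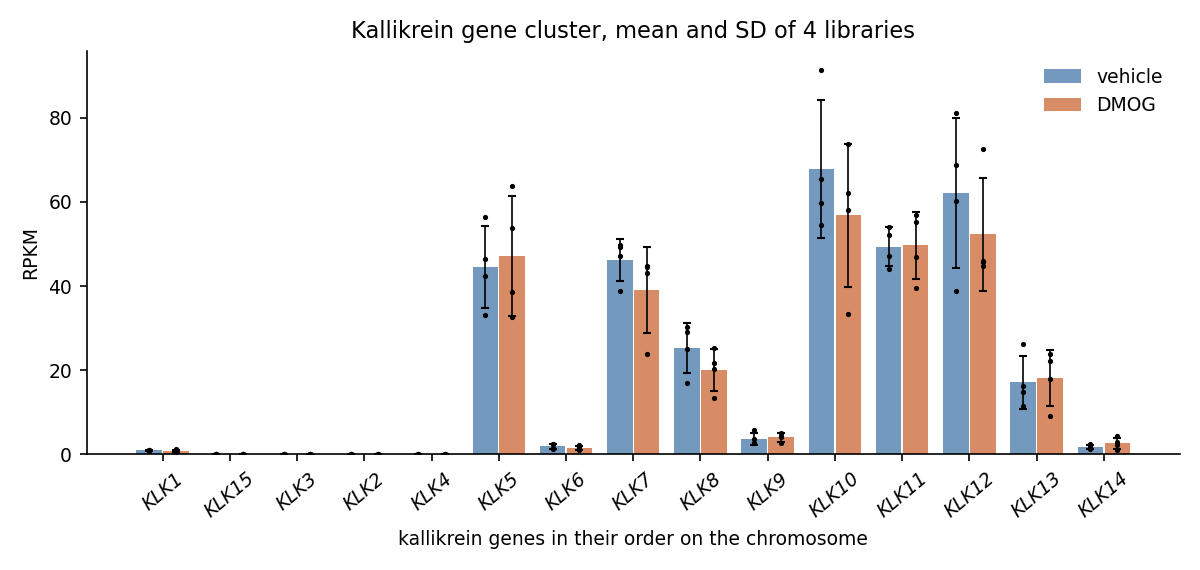
Mean RPKM (bars), SD (lines) and single libraries (points) of the 15 kallikrein genes in chromosomal order, with n = 4 vehicle and 4 DMOG libraries. The signal lies in KLK5, KLK7, KLK8 and the genes from KLK10 to KLK13, and within this stretch KLK6 and KLK9 are low.

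Library totals recovered from the values were 31245695 to 39931833 reads, and even KLK6, the lowest member, had 60 to 168 reads per library. Keratinocyte markers marked the cells as labelled, with 10 of 10 at a mean of 1 RPKM or more and a sum of 21574 to 31333 RPKM with vehicle and 26634 to 30273 with DMOG. Of 6 fibroblast markers only COL1A1 reached 1 RPKM and DCN and LUM were at 0 (sums of 8.71 to 14.1 with vehicle and 19.02 to 32.0 with DMOG). Of 7 leukocyte markers only CD68 did, and the eosinophil genes CLC and EPX were at 0 (42.8 to 74.2 and 60.9 to 94.0). Of 4 endothelial markers only VWF did (1.44 to 1.97 and 0.870 to 1.69), and of 7 columnar markers only KRT8, KRT18 and KRT19 (1007 to 1482 and 1124 to 1473). The part of these differences in the results below was not tested, and in such bulk RNA fewer cells of a type and less RNA per cell cannot be told apart.

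DMOG replicate 2 stood apart from its group. CA9 had 25.2, 9.97 and 57.5 RPKM in DMOG replicates 1, 3 and 4 but 2.56 in replicate 2, against 0.129 to 1.29 with vehicle. The authors' own deposited comparison was found to average replicates 1, 3 and 4 of each group and to leave out replicate 2 of both. Each member is therefore described both over all 8 libraries as deposited and over those 6 libraries after division by median-ratio scaling factors, with the caution that the choice of the 6 may rest on measured values, which their p-values do not allow for. Fold changes are log2(RPKM + 1) with DMOG minus those with vehicle, ± the standard error (SE) of limma's fit across all genes, and p-values are two-sided and adjusted over all 11122 genes tested. All 10 members passed the filter for testing, which asked for 4 libraries or more with at least 1 RPKM.

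None of the 10 members passed an adjusted p of 0.05 in limma's fit in either comparison. Over 8 libraries 0 of 10 were called, as were 0% of all genes tested; at an unadjusted p under 0.05 it was 0 of 10 members beside 35.1% of all genes. Over 6 libraries 0 of 10 were called beside 29.8% of all genes (13.7% higher and 16.1% lower), and at an unadjusted p under 0.05 0 of 10 beside 44.9%. Limma-voom on recovered reads also called 0 members in both. The median log2 fold change of the members was -0.15 over 8 libraries, where that of all genes was -0.18, and 0.04 over 6, where that of all genes was -0.00. Without the scaling factors the 6 libraries gave -0.23 for the members and -0.26 for all genes, and KLK6, KLK10, KLK11, SPINK5 and SPINK7 changed sign, while KLK5, KLK7, KLK8, KLK12 and KLK13 did not.

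**Figure D3:**
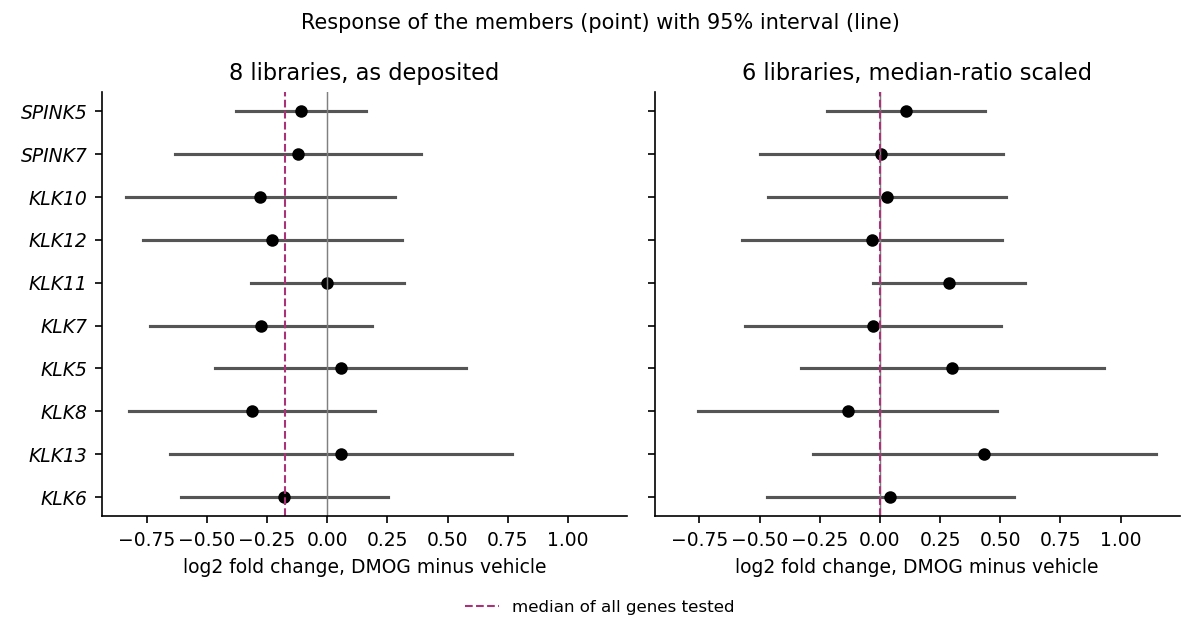
Log2 fold change of each gene (point) with its 95% interval (line) over 8 libraries as deposited (n = 4 per group) and over 6 scaled libraries (n = 3 per group); the dashed line is the median of all genes tested. Every interval covers 0, and the points lie between -0.31 and 0.06 on the left and between -0.13 and 0.43 on the right.

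KLK5, the trypsin-like protease that starts the cascade, had 56.5, 46.5, 33.0 and 42.3 RPKM in vehicle replicates 1 to 4 and 63.7, 53.9, 38.5 and 32.5 in DMOG replicates 1 to 4. The groups overlapped, with replicate 1 highest in each. The log2 fold change was 0.06 ± 0.23 over 8 libraries (95% interval -0.47 to 0.58, limma adjusted p = 0.876) and 0.30 ± 0.27 over 6 (-0.33 to 0.93, 0.408). KLK7, the chymotrypsin-like protease that KLK5 activates and that cuts corneodesmosin, had 47.1, 49.2, 49.8 and 38.9 RPKM with vehicle and 44.5, 44.8, 43.1 and 23.9 with DMOG. Its DMOG replicate 4 lay far below the other 7 libraries, which overlapped. The log2 fold change of KLK7 was -0.28 ± 0.20 over 8 libraries (-0.74 to 0.18, adjusted p = 0.348) and -0.03 ± 0.23 over 6 (-0.56 to 0.51, 0.933). The ratio of KLK5 to KLK7 was 0.663 to 1.20 in vehicle libraries and 0.893 to 1.43 in DMOG libraries.

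KLK8, a trypsin-like protease of the skin and brain also called neuropsin, had 29.002, 24.9, 16.9 and 30.3 RPKM with vehicle and 21.6, 25.3, 13.4 and 20.3 with DMOG. Replicate 3 was lowest in both groups, and the groups overlapped. KLK8 had the lowest fold change of the members over 8 libraries, -0.31 ± 0.23 (-0.83 to 0.20, limma adjusted p = 0.336), and over 6 it was -0.13 ± 0.26 (-0.75 to 0.49, 0.712). Its transcripts share 34.1% of their 50-base stretches with AC011473.4, an overlapping gene on the same strand in GENCODE 29, so its reads may be split between the 2 genes where both are annotated. KLK6, a trypsin-like protease also known as neurosin, was the lowest member, with 1.36, 2.40, 2.46 and 1.41 RPKM with vehicle and 1.204, 1.74, 2.17 and 1.12 with DMOG. In both groups replicates 2 and 3 were above replicates 1 and 4, and the groups overlapped. Its log2 fold change was -0.18 ± 0.19 over 8 libraries (-0.61 to 0.25, 0.517) and 0.04 ± 0.22 over 6 (-0.47 to 0.56, 0.888). KLK6 shares 15.4% and KLK5 8.82% of their 50-base stretches with the antisense gene AC011483.2. KLK7, KLK8, KLK10, KLK12 and SPINK7 also have an annotated antisense partner there, and as no source used here says how strand was handled, reads of the 2 strands may be mixed in these values. Among genes with a single position in the deposited values, only SPINK7 had an overlapping gene, LOC102546294 on the opposite strand (at most 0.177 RPKM).

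KLK10, a kallikrein with little known proteolytic activity, was the highest kallikrein by its vehicle mean, with 65.5, 91.4, 59.8 and 54.5 RPKM with vehicle and 58.0, 73.8, 62.2 and 33.4 with DMOG. Replicate 2 was highest and replicate 4 lowest in each group, and the groups overlapped. The log2 fold change was -0.28 ± 0.25 over 8 libraries (-0.84 to 0.28, limma adjusted p = 0.438) and 0.03 ± 0.21 over 6 (-0.47 to 0.52, 0.922). KLK12, a trypsin-like kallikrein, had 60.1, 68.7, 38.8 and 81.2 RPKM with vehicle and 45.9, 72.5, 45.8 and 44.9 with DMOG. DMOG replicates 1, 3 and 4 lay within about 1 RPKM of each other, and replicate 2, the library with little CA9, lay with the higher vehicle libraries. Over 8 libraries the log2 fold change of KLK12 was -0.23 ± 0.24 (-0.77 to 0.31, 0.509), and over 6 it was -0.03 ± 0.23 (-0.57 to 0.51, 0.922).

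KLK11, a trypsin-like kallikrein also called hippostasin, varied least of the kallikreins, with 52.2, 54.0, 44.0 and 47.0 RPKM with vehicle and 56.9, 55.3, 46.8 and 39.6 with DMOG. The groups overlapped as deposited. Its log2 fold change was -0.00 ± 0.14 over 8 libraries (-0.32 to 0.32, limma adjusted p = 1.00) and 0.29 ± 0.13 over 6 (-0.03 to 0.60, 0.140), the lowest adjusted p of the members. After scaling KLK11 stood at 46.460, 41.0 and 41.4 in the 3 vehicle libraries and 62.1, 50.1 and 46.463 in the 3 DMOG libraries. KLK11 was thus the 1 member of 10 whose scaled groups did not overlap, by the third decimal, a state shared by 51.3% of all genes tested; over 8 libraries as deposited the groups overlapped for all 10 members, while 15.1% of all genes had groups that did not. With the replicate number as a block its adjusted p was 0.0583, and without scaling its log2 fold change over 6 libraries was -0.01.

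KLK13, a trypsin-like kallikrein abundant in the esophagus, had 14.8, 26.1, 16.2 and 11.6 RPKM with vehicle and 17.8, 22.3, 23.7 and 9.01 with DMOG. The lowest library of each group was replicate 4, and the groups overlapped. The log2 fold change was 0.06 ± 0.32 over 8 libraries (-0.65 to 0.77, limma adjusted p = 0.903) and 0.43 ± 0.30 over 6 (-0.28 to 1.15, 0.299), the highest of the members. KLK13 passed only without DMOG replicate 4, with 3 vehicle and 2 DMOG libraries left. There the log2 fold change was 0.77 and the limma adjusted p 0.0309, and no other member was called. Fits that omitted a library from the 6 called 379 to 2224 of all genes higher and 539 to 2527 lower. The share for this fit alone is not given here.

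SPINK5, whose product LEKTI inhibits KLK5, KLK7 and other kallikreins through many Kazal domains, had 837, 798, 780 and 1046 RPKM with vehicle and 745, 885, 774 and 789 with DMOG. Vehicle replicate 4 stood above the other 7 libraries, among which the groups overlapped. The log2 fold change was -0.11 ± 0.12 over 8 libraries (-0.38 to 0.16, limma adjusted p = 0.529) and 0.11 ± 0.14 over 6 (-0.22 to 0.44, 0.572). SPINK7, a single-domain Kazal inhibitor of esophageal epithelium, had 661, 672, 505 and 924 RPKM with vehicle and 638, 893, 558 and 466 with DMOG. Vehicle replicate 4 and DMOG replicate 2 were highest, and the groups overlapped. Its log2 fold change was -0.12 ± 0.23 over 8 libraries (-0.63 to 0.39, 0.723) and 0.01 ± 0.21 over 6 (-0.50 to 0.51, 0.987).

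The balance of inhibitor to protease RNA was described by ratios of RPKM within a library. SPINK5 RNA was 14.8 to 24.7 times KLK5 RNA with vehicle and 11.7 to 24.3 times with DMOG. For SPINK7 over KLK5 the ratio was 11.7 to 21.8 with vehicle and 10.02 to 16.6 with DMOG. The summed RPKM of SPINK5 and SPINK7 was 4.05 to 6.41 times that of the 8 kallikreins with vehicle and 4.47 to 6.13 times with DMOG. Both groups overlapped in each of these ratios, and inhibitor RNA exceeded kallikrein RNA in all 8 libraries. The summed kallikrein RPKM itself was 261 to 363 with vehicle and 205 to 349 with DMOG.

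In the values as deposited, single libraries were extreme for many members at once. DMOG replicate 4 was the lowest library for 7 of the 10 members, among them 6 of the 8 kallikreins. Vehicle replicate 4 was the highest for 4 members. The share of all genes lowest in DMOG replicate 4 was not counted. DMOG replicate 4 also had the smallest scaling factor, 0.852 over the 6 libraries, which raises its values on division, and the most CA9. After that scaling DMOG replicate 4 was the lowest of the 6 libraries only for KLK7 (28.0) and KLK10 (39.2). The coefficient of variation over 8 libraries was 34.0% for KLK13, 31.3% for KLK6 and 27.2% for KLK12, and only 12.3% for KLK11 and 11.6% for SPINK5. The members did not share 1 profile across libraries: KLK6 and KLK7 were highest in vehicle replicate 3, where KLK12 was lowest.

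**Figure D4:**
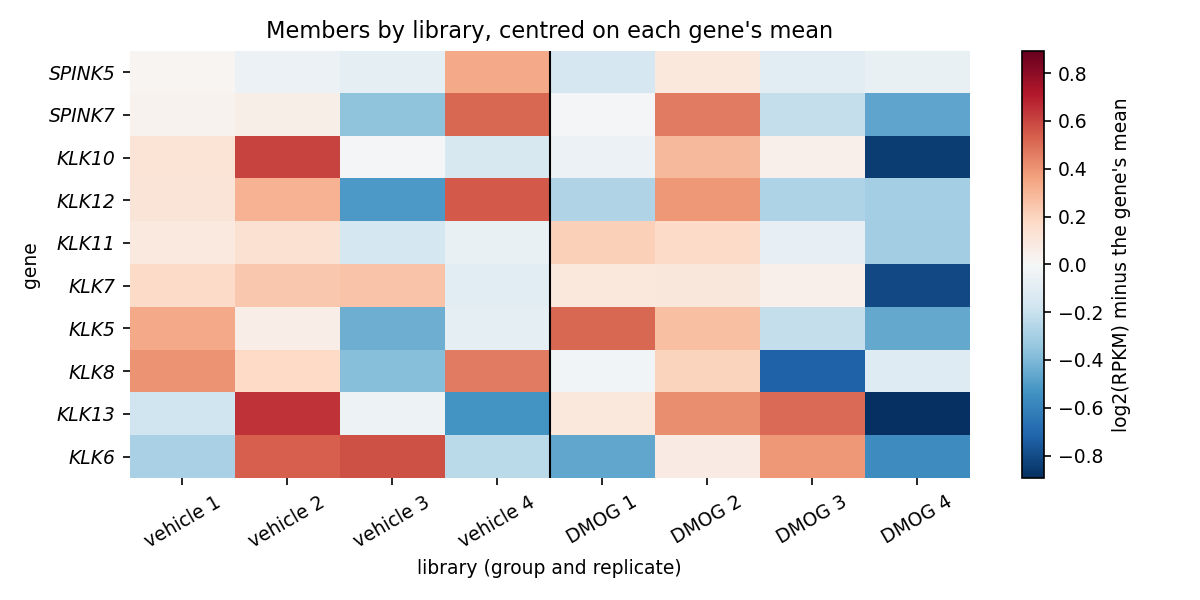
Log2(RPKM) of each gene in each library minus the gene's mean over 8 libraries (colour scale, log2 units). In these unscaled values DMOG replicate 4 is the lowest column for 7 of the 10 genes, and SPINK5 and KLK11 show the palest rows.

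Nearest profiles were found for KLK5, KLK7, SPINK5 and SPINK7 among 11112 genes by the root mean square (RMS) difference of gene-centred log2 RPKM over the 8 libraries. Nearest to KLK5, whose own RMS deviation from its mean was 0.329, were SPRY2 (0.115), SMARCA1 (0.152) and ZNF689 (0.156). For KLK7 (own RMS deviation 0.313) they were CALM2 (0.0434), IL4R (0.0856) and ACSL4 (0.0896). CAPNS2 (0.0299), KIF27 (0.0534) and SEPSECS (0.0579) were nearest to SPINK5 (own RMS deviation 0.146). SPINK7 (own RMS deviation 0.331) had CCDC28B (0.108), HSD17B7 (0.114) and LRRC61 (0.138) nearest. All RMS values are log2 units, and every profile is read from the same 8 libraries and so shares their treatments and depths. Adding 1 flattens profiles of low genes, such as ZNF689 (mean 1.11 RPKM), KIF27 (1.18), SEPSECS (1.57), CCDC28B (1.16) and LRRC61 (1.35). Nearness without the added 1 was not computed.

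The authors' own test left the members uncalled too, but it rests on the same 6 libraries and so adds no independent data. In the authors' deposited table, 0 of the 10 members had an adjusted p under 0.05, beside 36.4% of its 13424 genes. The ratios of DMOG to vehicle in the authors' deposited table ran from 0.909 for KLK8 (adjusted p = 0.746) to 1.45 for KLK13 (0.201). KLK11 had the lowest adjusted p of the members there, 0.138, with a ratio of 1.24, and SPINK5 had a ratio of 1.08 (0.617).

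Other genes of the pathway were read from 7 lists of 75 genes in all, of which 52 passed the filter. Over 8 libraries 13 of 52 were higher and 4 lower at a limma unadjusted p under 0.05, beside 665 and 3243 of 11122 genes. After adjustment limma called 0 of the 52, and limma-voom also called 0. Over 6 libraries 23 were called higher and 3 lower, and 26 did not pass, beside the 29.8% of all genes called (13.7% higher and 16.1% lower). These lists were chosen with earlier results of these data known. Of the 52, 48 had at least 1 RPKM in all 8 libraries. SPINK1 and CASP14, both among the 23, reached it in 4 DMOG libraries but in only 1 vehicle library, so they were tested only because they were high with DMOG, and their values are given as a description without a p-value. The counts of partner genes given here also include SPINK1 and CASP14 wherever they passed. With SPINK1 and CASP14 included, the median log2 fold change of the 52 was 0.45, beside -0.00 for all genes. On the 6 libraries as deposited, without scaling, 13 rose and 3 fell, beside 682 and 3836 of all genes. With the replicate block 29 rose and 6 fell, beside 2181 and 2337 of all genes. Leaving out vehicle replicate 1 brought the count to 7 rising and 0 falling, beside 379 and 539 of all genes. It was 9 and 0 without DMOG replicate 1, beside 486 and 607 of all genes. Without vehicle replicate 4 it was 13 and 0, beside 466 and 587. Without the filter on low values 15 rose, and of the genes named below CST6 (0.0509), TMPRSS11D (0.0545) and IL1B (0.0586) then missed the threshold.

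**Figure D5:**
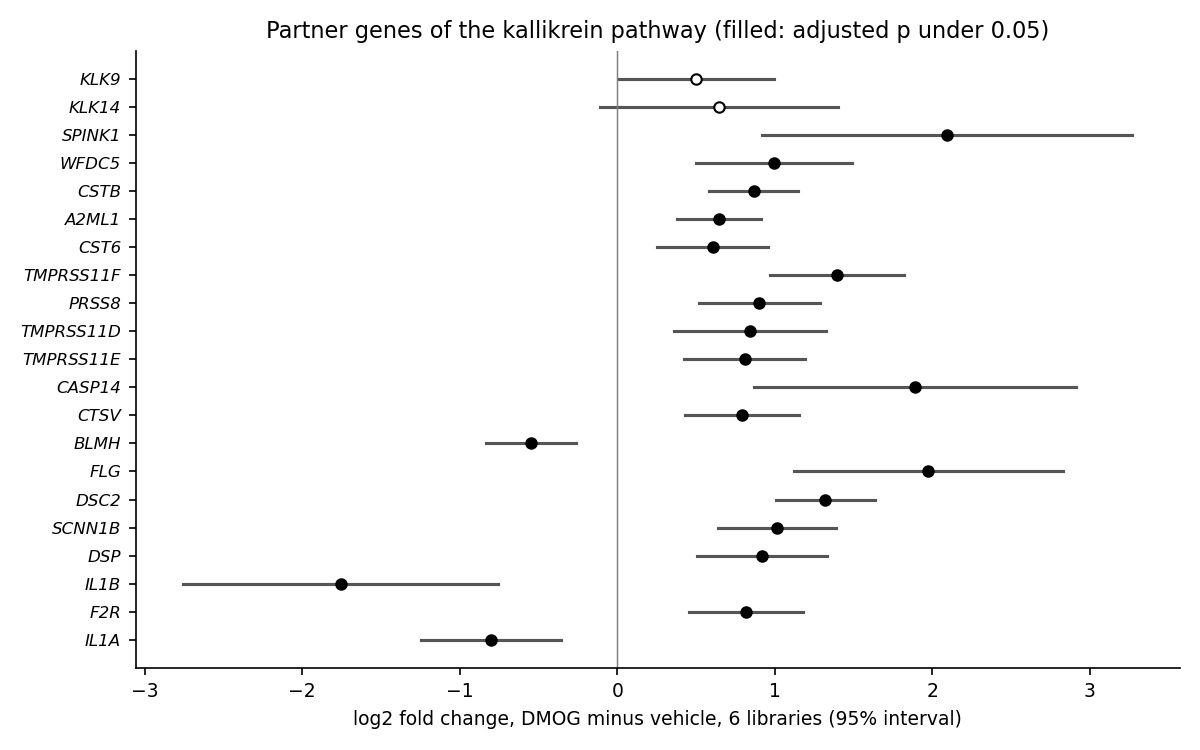
Log2 fold change (point) with its 95% interval (line) over 6 scaled libraries, n = 3 per group, for the partner genes named in the text; filled points have an adjusted p under 0.05. KLK9 and KLK14 are open, IL1B, IL1A and BLMH lie left of 0, and the other filled genes lie right of it. SPINK1 and CASP14 passed the filter only through the DMOG libraries, so their fill is not read as a result.

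Among the other kallikreins 0 of 2 tested genes passed over 6 libraries, beside 29.8% of all genes. KLK9 had a log2 fold change of 0.50 ± 0.21 over 6 libraries (limma adjusted p = 0.107), which passed with the replicate block (0.0338) and without DMOG replicate 4 (0.69, 0.0324). KLK14, which can activate other kallikreins, had 0.65 ± 0.32 (0.158), which passed without DMOG replicate 4 (1.03, 0.0132). The replicate block called 2181 of all genes higher and 2337 lower. Fits that left out 1 of the 6 libraries called 379 to 2224 higher and 539 to 2527 lower. Over 8 libraries the values were 0.13 ± 0.23 (0.709) for KLK9 and 0.31 ± 0.27 (0.423) for KLK14. Of the other Kazal inhibitors only SPINK1, the pancreatic secretory trypsin inhibitor, could be tested. SPINK1 had 0.208, 0.391, 2.33 and 0.532 RPKM with vehicle and 5.76, 1.128, 3.09 and 10.8 with DMOG. Apart from DMOG replicate 2, every DMOG library lay above every vehicle library, a separation that the filter favoured. Over the 6 scaled libraries 51.3% of all genes tested had groups that did not overlap. The log2 fold change of SPINK1 was 2.09 ± 0.50 over 6 libraries and 1.58 ± 0.51 over 8. SPINK6 was below the filter, at 0.292, 2.00, 0.0342 and 0.240 RPKM with vehicle and 1.87, 1.44, 0.717 and 0.873 with DMOG, and was singled out after its values were seen because the authors' deposited table gives it a ratio of 7.65 (adjusted p = 0.00129). Its vehicle replicate 2, left out there, was the highest of the 8 libraries.

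Of the 10 other protease inhibitors tested 5 rose and 0 fell over 6 libraries, beside 13.7% and 16.1% of all genes. Cystatin B (CSTB), an inhibitor of cysteine cathepsins, had means of 3388 ± 149 RPKM in the vehicle group and 5004 ± 289 in the DMOG group (SD, n = 3 each) and rose by 0.87 ± 0.12 (limma adjusted p = 0.00605). WFDC5, a whey acidic protein family member, rose by 1.00 ± 0.21 (0.0157) and A2ML1, a broad protease inhibitor of keratinocytes, by 0.65 ± 0.11 (0.00992). CST6, cystatin M, rose by 0.61 ± 0.15 (0.0253). Over 8 libraries none of these 4 passed, with 0.46 (adjusted p = 0.0879) for CSTB, 0.48 (0.307) for WFDC5, 0.27 (0.130) for A2ML1 and 0.27 (0.209) for CST6. CSTB alone of these 4 held its call under all alternatives of the 6-library fit that were run. Without scaling A2ML1 (0.0699) and CST6 (0.188) did not pass, and WFDC5 and CST6 did not pass without DMOG replicate 1 (0.0539 and 0.0899), vehicle replicate 1 (0.0630 and 0.0691) or vehicle replicate 4 (0.0635 and 0.0930). CST6 also did not pass without vehicle replicate 3 (0.0748).

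Of the 14 membrane and activating serine proteases tested 8 rose and 0 fell over 6 libraries, beside 13.7% and 16.1% of all genes. TMPRSS11F, a transmembrane serine protease of squamous epithelium, had 5.09, 6.61 and 7.19 RPKM with vehicle and 15.3, 18.6 and 11.3 with DMOG in replicates 1, 3 and 4. It rose by 1.39 ± 0.18 (limma adjusted p = 0.00535). PRSS8, prostasin, which acts with matriptase and on the epithelial sodium channel, had means of 95.6 ± 15.2 RPKM in the vehicle group and 145 ± 12.2 in the DMOG group (SD, n = 3 each) and rose by 0.90 ± 0.16 (0.0105). TMPRSS11D rose by 0.84 ± 0.20 (0.0242) and TMPRSS11E by 0.81 ± 0.16 (0.0142). Over 8 libraries none of these 4 passed, with 0.77 (adjusted p = 0.0945) for TMPRSS11F, 0.42 (0.113) for PRSS8, 0.49 (0.109) for TMPRSS11D and 0.30 (0.293) for TMPRSS11E. TMPRSS11F passed under every alternative of the 6-library fit that was run; PRSS8 did not pass without vehicle replicate 1 (0.0526). TMPRSS11D and TMPRSS11E did not pass on unscaled values (0.0812 and 0.0534), without vehicle replicate 1 (0.0906 and 0.0516) or without DMOG replicate 1 (0.0693 and 0.0576), nor TMPRSS11D without vehicle replicate 3 (0.0709).

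Of the 9 cysteine and aspartic proteases tested CTSV was called higher and BLMH lower over 6 libraries, beside 13.7% and 16.1% of all genes. CASP14 was tested only because it was high with DMOG, so its call is not read as a result. CASP14, the caspase of cornification, had means of 0.712 ± 0.553 RPKM in the vehicle group and 5.03 ± 3.53 in the DMOG group (SD, n = 3 each). Its log2 fold change was 1.89 ± 0.43, and 1.43 ± 0.40 over 8 libraries. CTSV, cathepsin V, rose by 0.79 ± 0.15 (limma adjusted p = 0.0125), and BLMH, bleomycin hydrolase, which breaks filaggrin peptides down further, fell by 0.55 ± 0.12 on the log2 scale (0.0181). Over 8 libraries CTSV had 0.32 (0.262) and BLMH -0.63 (0.0879). The calls of CTSV and BLMH were lost when DMOG replicate 1 (0.0561 and 0.0655) or vehicle replicate 1 (0.0550 and 0.0804) was left out, and that of BLMH without vehicle replicate 4 (0.0755).

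Of the 11 genes tested from the list drawn up as substrates 6 rose and 0 fell over 6 libraries, beside 13.7% and 16.1% of all genes. Whether kallikreins cut the product of each listed gene was not tested. DSC2, desmocollin 2, a desmosomal cadherin, had 178, 216 and 193 RPKM with vehicle and 370, 432 and 390 with DMOG in replicates 1, 3 and 4, and 262 and 254 in replicate 2 of each group. It rose by 1.32 ± 0.13 (limma adjusted p = 0.00318). FLG, profilaggrin, rose by 1.97 ± 0.36 (0.0111), SCNN1B, a subunit of the epithelial sodium channel, by 1.01 ± 0.16 (0.00802) and DSP, desmoplakin, by 0.92 ± 0.17 (0.0122). Over 8 libraries the log2 fold changes were 0.75 for DSC2, 1.502 for FLG, 0.55 for SCNN1B and 0.50 for DSP, each with an adjusted p of 0.0879. DSC2, FLG and SCNN1B passed under all alternatives of the 6-library fit that were run, and DSP under all but the omission of vehicle replicate 1 (0.0589). DSG1 and CDSN, the desmoglein and corneodesmosin that KLK5 and KLK7 cut, did not pass, with fold changes of 0.92 ± 0.43 (0.142) and 0.13 ± 0.28 (0.742) over 6 libraries, and 0.70 (0.182) and 0.01 (0.987) over 8; these 2 were singled out for that role after their values were seen.

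Of the 5 receptors and cytokines tested 1 rose and 2 fell over 6 libraries, beside 13.7% and 16.1% of all genes. IL1B, whose precursor kallikreins can cut, had 275, 190 and 145 RPKM with vehicle and 64.7, 69.2 and 22.3 with DMOG in replicates 1, 3 and 4. It fell by 1.76 ± 0.42 on the log2 scale (limma adjusted p = 0.0238), and IL1A fell by 0.80 ± 0.19 (0.0226). F2R, the thrombin receptor PAR1, rose by 0.82 ± 0.15 (0.0117), while F2RL1, the receptor PAR2 that KLK5 can activate, had 0.09 ± 0.18 (0.714) over 6 libraries and -0.08 (0.770) over 8 and was singled out after its values were seen. Over 8 libraries none of the called 3 passed, with -1.45 (0.105) for IL1B, -0.67 (0.141) for IL1A and 0.56 (0.0879) for F2R. IL1B and IL1A did not pass without DMOG replicate 1 (0.0540 and 0.0745), vehicle replicate 1 (0.0842 and 0.0846) or vehicle replicate 4 (0.0501 and 0.0783). IL1B also did not pass without vehicle replicate 3 (0.0642), and F2R did not without vehicle replicate 4 (0.0508) or DMOG replicate 1 (0.0528). In DMOG replicate 2, IL1B was at 207 RPKM, within the vehicle range of 145 to 275.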

How the data were processed

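The authors deposited RPKM per gene for all 8 libraries; the table's name calls the values counts, but undoing the scaling to length and total turned 100% of 131884 values above 0 into whole reads (within 0.01 reads). The submitters' processing notes list TopHat2 2.0.13, Bowtie2 2.2.3.0 and HTSeq 0.6.1 among the tools, without roles, and both hg19 and hg38; chromosome names in the table are those of hg19. The authors' deposited table holds group means on a normalized signal scale, their ratio, its log2 value, a p-value and an adjusted p; the tool behind it was not given in any source used here.

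Values were fitted as log2(RPKM + 1) with limma-trend (limma 3.58.1, R 4.3.3, robust empirical Bayes), with treatment as the only term, on genes with at least 1 RPKM in at least 4 libraries, with Benjamini-Hochberg adjustment over 11122 genes. A pseudocount of 1 understates changes of low genes. Means with SD are RPKM as deposited. Groups and replicate numbers came from sample titles. Over 6 libraries same-numbered samples deviated together (correlations of 0.47, 0.40 and 0.34), so the numbers may pair them; over 8 libraries they did not in every pair. The fits were tested on simulated data. Alternatives were the pseudocount, filter, scaling, limma-voom on recovered reads, a replicate block and leaving out each library.

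The members, partner lists and marker lists were chosen with earlier results of these data known. Named partner genes are, per list, up to 4 called genes with the largest absolute log2 fold change over 6 libraries, or else the 2 of highest mean.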

Additional observations from a re-analysis of the deposited data

Results flagged for a closer look

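Within each group of 4 libraries, the highest and lowest library of each of the 10 members was set against the others by Dixon's gap test, and 2 of 20 groups stood out; chance marks about 1 in 20. KLK7 in DMOG replicate 4, at 23.9 RPKM, lay far below the other DMOG libraries. KLK12 in DMOG replicate 2, at 72.5 RPKM, lay far above the other DMOG libraries.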

How the results depend on the processing

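Over 8 libraries 0 members were called under all 15 alternatives. No gene was called either, except without DMOG replicate 2 (the range over omitted libraries was 0 to 747 genes higher and 0 to 3585 lower, and among partner genes 0 to 12 higher and 0 to 5 lower). Over 6 libraries the member count stayed at 0 except without DMOG replicate 4 (range 0 to 1 higher, KLK13). For all genes, against 1526 higher and 1792 lower, values as deposited gave 682 and 3836, and limma-voom gave 1556 and 1789. The replicate block gave 2181 and 2337, and omitting a library gave 379 to 2224 and 539 to 2527. Partner genes higher numbered 29 with the replicate block, 15 without a filter, 13 as deposited and 7 to 24 with a library omitted. Those lower numbered 6 with the replicate block and 0 to 3 with a library omitted. The block changed no member's call.

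Member fold changes near 0 changed sign in 19 of 150 values over 8 libraries and 20 of 130 over 6. Over 8, median-ratio factors gave KLK11 0.21, SPINK5 0.10 and SPINK7 0.092, upper-quartile factors 0.19, 0.082 and 0.071, and limma-voom KLK11 0.0023. Omitting a library gave KLK5 -0.10 to 0.21, KLK11 -0.069 to 0.10, KLK13 -0.10 to 0.35 and SPINK7 -0.30 to 0.030. Over 6, values as deposited gave KLK6 -0.14, KLK10 -0.27, KLK11 -0.011, SPINK5 -0.20 and SPINK7 -0.30, and upper-quartile factors gave KLK10 -0.0061 and SPINK7 -0.030. Omitting a library gave KLK6 -0.13 to 0.23, KLK7 -0.17 to 0.22, KLK8 -0.37 to 0.092, KLK10 -0.11 to 0.27, KLK12 -0.29 to 0.19 and SPINK7 -0.19 to 0.21. The cause of these shifts was not tested. With 3 or 4 libraries a group, the widest member interval (KLK13) spanned 1.42 log2 units over 8 libraries, so changes within the intervals were not detectable at this depth of replication.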
